A study of Mus musculus with 8 samples.

Results

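The genes described here were the receptor chains for the interferons and interleukin-10 (IL-10) and the Janus kinases (JAKs) bound to their tails, in induced regulatory T cells (iTreg) that did or did not carry neuropilin-1 (Nrp-1) at the cell surface. The members were named by symbol: Ifngr1 and Ifngr2 (receptor of interferon-γ), Ifnar1 and Ifnar2 (receptor of the type I interferons), Il10ra and Il10rb (receptor of IL-10), and the kinases Jak1, Jak2, Jak3 and Tyk2. The table held 23361 genes. All 10 members were in it and all 10 passed the filter for testing, a mean of at least 1 FPKM (fragments per kilobase of transcript and per unit of mapped reads, a level corrected for gene length and library size).

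Each of these receptors is a pair of unlike chains with no enzyme activity of its own. Binding of the cytokine brings the kinases on the chains together, the kinases phosphorylate the receptor and then STAT proteins, and STAT dimers move to the nucleus and switch on target genes. Type I interferons work through a complex that holds STAT2 and IRF9, and IL-10 works mainly through STAT3. In regulatory T cells, IL-10 signalling has been tied to suppressive function, while interferon-γ drives the helper T cell program that such cells hold in check.

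Naïve CD4+ T cells of wild-type (WT) mice with a Foxp3-RFP reporter, young adult males by the study's methods, were activated with beads bearing anti-CD3 and anti-CD28 antibodies in the presence of IL-2 (50 U/ml by the labels) and TGF-β (2 ng/ml), which turns part of them into Foxp3-expressing cells. Live CD4+ Foxp3-RFP+ cells were then sorted into an Nrp-1+ and an Nrp-1- fraction, and RNA was sequenced from 4 libraries of each, labelled as biological replicates 1 to 4. The labels give 3 days of culture in one field and day 5 in another, the methods differ from the labels in the IL-2 dose and the library kit, and neither says that the replicates came from separate mice, so p-values measure the spread between these libraries. The fractions share genotype, reporter and culture, are set apart by the labels only through the sort, and are cells made in culture, not regulatory T cells of the thymus.

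The sort showed in the RNA: Nrp1 stood at 21.5 ± 0.709 FPKM in Nrp-1+ iTreg and 4.95 ± 0.262 in Nrp-1- iTreg (SD, n = 4 each; limma log2 fold change 1.92, adjusted p = 1.35e-07). Foxp3 stood at 115.8 ± 3.72 and 108.8 ± 1.20 FPKM (log2 fold change 0.09, adjusted p = 0.0245). All 9 T cell and regulatory T cell markers were tested; 3 were higher in Nrp-1+ iTreg (Il2ra, Ikzf2 and Foxp3) and 3 were lower (Cd3d, Cd3g and Ctla4), though none of the 3 lower calls held under quantile normalization. Of all tested genes, 20.9% were higher and 20.0% lower. Of 16 measured markers of B cells, myeloid cells, dendritic cells, NK cells and CD8 T cells, 4 passed the filter, with Itgam higher, Cd8b1 lower and Cd79b and Klrd1 not called, counts near those shares. The summed level of the 16 was 23.7 to 24.8 FPKM in Nrp-1+ iTreg and 23.9 to 26.3 in Nrp-1- iTreg. Among defining markers, Ms4a1 was listed at 0 in every library and Cd8a reached at most 0.11 FPKM. The 4 that passed the filter stood higher: in Nrp-1+ and Nrp-1- iTreg, mean levels were 5.09 and 4.58 FPKM for Cd79b, 6.70 and 5.56 for Itgam, 3.67 and 4.55 for Klrd1 and 7.86 and 10.0 for Cd8b1. Their part in the members' values was not tested. The deposited values are FPKM and the number of reads behind each library is unknown. Relative depth, read from the smallest steps of FPKM, was 0.993 to 1.22 in Nrp-1+ iTreg and 0.812 to 1.24 in Nrp-1- iTreg (library 1 of Nrp-1+ iTreg = 1). Short RNA genes took between 1.77% and 43.9% of the summed FPKM of a library, and this share varied within both groups.

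Of the 10 members, 4 form a gene cluster on mouse chromosome 16 (build GRCm38.p6, the build named in the submitters' processing notes being GRCm38). In order along the chromosome, Ifnar2 lies at chr16:91372783-91405589, Il10rb at chr16:91406157-91425834, Ifnar1 at chr16:91485032-91510523 and Ifngr2 at chr16:91547059-91564007. Away from the cluster lie Ifngr1 (chr10:19591949-19610229), Il10ra (chr9:45253837-45269149), Jak1 (chr4:101151974-101265282), Jak2 (chr19:29251803-29313095), Jak3 (chr8:71676383-71690577) and Tyk2 (chr9:21104068-21131393). Jak3 and Jak1 overlap other genes, Insl3 (mean 4.06 FPKM, inside the span of Jak3) and Raver2 (mean 1.83 FPKM, at the end of Jak1). A long noncoding RNA, Gm36587, overlaps Ifnar2 on the other strand. Whether counting used the strand was not clear from the sources used here, so reads from overlapping stretches may be split between such genes.

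The sequence before the start site was read for the 8 members that matched the RefSeq promoter table (GRCm38.p6). Il10ra and Il10rb had no match. The 250 bases before each start were searched on both strands for 4 motifs. For Ifnar1, Jak1 and Tyk2 the start used lies inside the gene span given above, so the window runs into that span. The GAS palindrome, bound by STAT dimers and searched as TTCNNNGAA, was in 1 of the 8 member promoters, that of Ifnar2, against 7.02% of all 32851 promoters. The core of the ISRE, bound by the complex that holds STAT2 and IRF9 and searched as a pair of GAAA runs with 2 bases between them, was in 0 of the 8, against 2.98% of all. The GC box, searched as GGGCGG, was in the other 7, against 32.7% of all. GC content was 52.4% to 80.8% in the 8 member windows, against a median of 52.4% over all promoters, and its part in this share was not tested. The TATA box, searched as TATAAA, was in 0, against 12.4% of all. The windows of both interferon-γ receptor chains are shown because both genes were lower in Nrp-1+ iTreg, and that of Ifnar2 because it alone held GAS letters. For Ifngr1 and Ifngr2 only the 150 bases nearest the start are printed, and for Ifnar2 all 250. Capitals mark the GC box on either strand in the first 2 and the GAS letters in the third, which run from position -214 to position -206 relative to the start. In Ifngr2 the last 2 of the 4 GC boxes share 1 base.

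Ifngr1 (chr10:19591799-19591948, plus strand): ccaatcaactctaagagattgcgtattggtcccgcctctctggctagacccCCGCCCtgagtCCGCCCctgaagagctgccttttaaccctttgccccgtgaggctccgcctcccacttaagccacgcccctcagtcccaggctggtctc
Ifngr2 (chr16:91546909-91547058, plus strand): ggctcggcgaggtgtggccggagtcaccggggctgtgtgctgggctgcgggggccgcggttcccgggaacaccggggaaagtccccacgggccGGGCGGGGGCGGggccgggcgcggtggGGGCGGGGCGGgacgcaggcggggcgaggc
Ifnar2 (chr16:91372533-91372782, plus strand): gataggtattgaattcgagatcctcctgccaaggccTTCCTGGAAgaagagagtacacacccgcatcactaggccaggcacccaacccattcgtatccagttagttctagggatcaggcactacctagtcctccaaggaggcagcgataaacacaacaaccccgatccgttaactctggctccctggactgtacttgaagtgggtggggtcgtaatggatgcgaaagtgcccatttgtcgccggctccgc

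A letter match is a description of the window and not evidence of a bound site.

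The comparison of the sorted fractions asks whether the machinery for sensing interferons and IL-10 is set differently at the RNA level. Nrp-1+ iTreg had less RNA of 5 members: Ifngr1, Ifngr2, Ifnar1, Il10rb and Jak1 (limma on log2(FPKM + 1), Benjamini-Hochberg adjustment over all 10467 tested genes, threshold 0.05). The decreases ran from 6.70% to 15.8% of mean FPKM. No member was higher (0 at an unadjusted p under 0.05 as well), and Ifnar2, Il10ra, Jak2, Jak3 and Tyk2 were not called. The 5 lower members were 50.0% of the 10, where 20.0% of all tested genes were lower and 20.9% were higher. Among the 5369 tested genes at or above the level of the lowest member, 25.2% were lower. Without Nrp-1+ replicate 2 the lower members were 3 of 10 (Ifngr1, Ifnar1 and Jak1), close to that share. Of the called genes, 51.1% were higher in Nrp-1+ iTreg, and 40.0% once each library was corrected for GC content and transcript length, a fit in which Tyk2 was also lower and no member was higher. The median log2 fold change of the members was -0.098 and that of all tested genes was -0.016. In sorted bulk RNA, fewer cells that express a gene and less RNA of it per cell cannot be told apart.

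The groups of 4 libraries did not overlap for 4 members, Ifngr1, Ifnar1, Il10rb and Jak1, or 40.0%. Of all tested genes 39.5% had groups that did not overlap, and 44.5% of those at or above the level of the lowest member, so this share was near the background. The libraries of a group were close for all members, with coefficients of variation between 1.04% and 4.47%. Ifngr1 and Ifnar1 were among the genes that the study drew from these same libraries, so their calls are no independent evidence of a direction.

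Over the same libraries 16 of 16 cell cycle genes were higher in Nrp-1+ iTreg, where 20.9% of all tested genes were, with a median log2 fold change of 0.91. Among them, Ccna2, a cyclin, Mcm5, a subunit of the replicative helicase, and Rrm2, a subunit of ribonucleotide reductase, had log2 fold changes of 0.95, 1.00 and 0.97. The summed level of the 16 was 2019 to 2076 FPKM in Nrp-1+ iTreg and 1116 to 1132 FPKM in Nrp-1- iTreg. The part of this difference in the members' values was not tested.

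**Figure D1:**
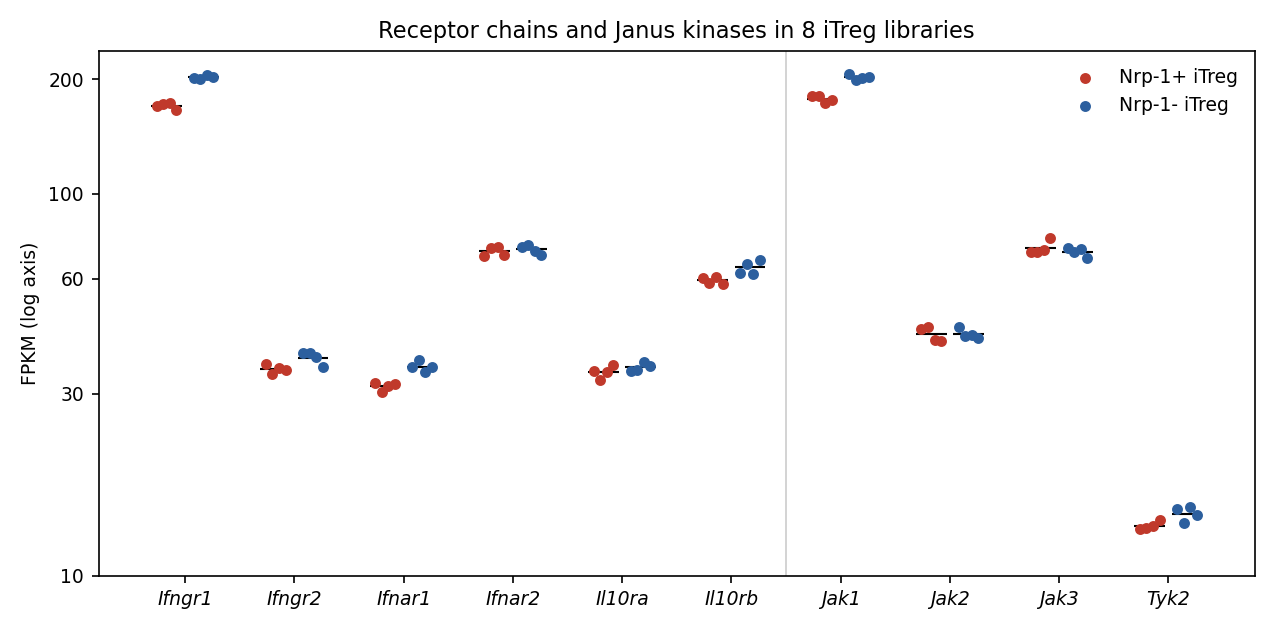
FPKM (log axis) of the 6 receptor chains, left of the grey line, and the 4 Janus kinases in each library, with Nrp-1+ iTreg in red and Nrp-1- iTreg in blue. Each group's 4 points are its replicates and the black bar is their mean, and the red and blue points are apart for Ifngr1, Ifnar1, Il10rb and Jak1.

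**Figure D2:**
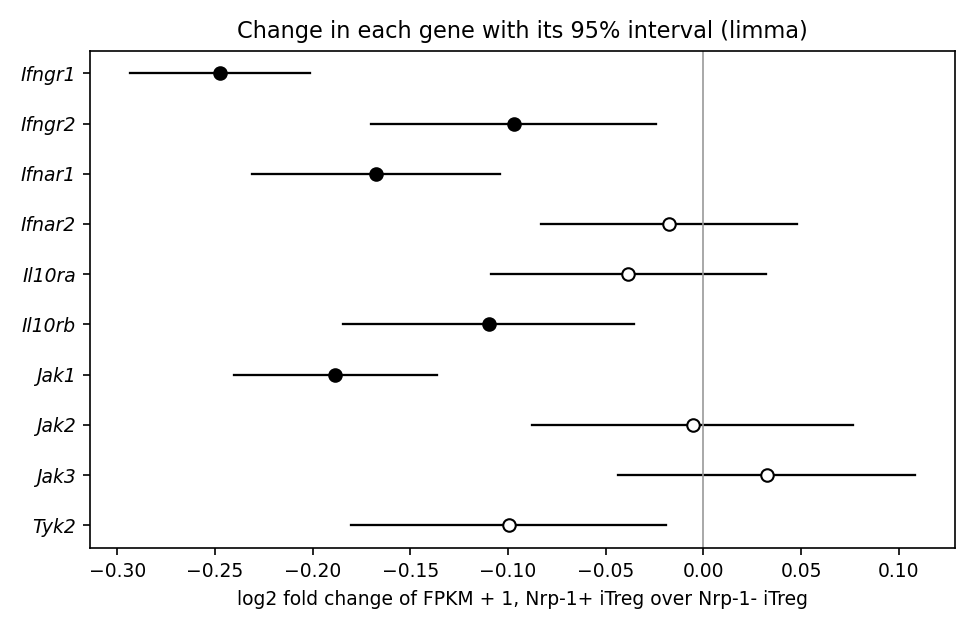
Log2 fold change of FPKM + 1 (Nrp-1+ iTreg over Nrp-1- iTreg, n = 4 each) with its 95% interval from limma for each member, filled where the adjusted p was under 0.05. Ifngr1 lies farthest to the left at -0.25, and the intervals of Ifnar2, Il10ra, Jak2 and Jak3 include 0.

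Ifngr1 encodes the chain that binds interferon-γ and carries JAK1. In Nrp-1+ iTreg it stood at 170.1, 172.1, 172.9 and 165.9 FPKM in replicates 1 to 4. The Nrp-1- libraries gave 201.1, 200.1, 204.9 and 202.9 FPKM. Every Nrp-1+ library lay below every Nrp-1- library, with a gap several times the spread inside either group. The means were 170.2 ± 3.14 and 202.3 ± 2.11 FPKM (SD, n = 4 each), a decrease by 15.8% (log2 fold change -0.25, SE 0.020, limma adjusted p = 3.4e-05). The call held in all 20 alternatives. Of all genes lower in Nrp-1+ iTreg, 74.3% had a smaller decrease than Ifngr1 on the log2 scale, where the median of the lower genes was -0.18.

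Ifngr2 encodes the second chain, which carries JAK2 and is often the limiting one for the response of T cells to interferon-γ. The Nrp-1+ libraries gave 35.8, 33.8, 34.9 and 34.6 FPKM and the Nrp-1- libraries 38.2, 38.3, 37.3 and 35.2 FPKM. The groups overlapped, since replicate 4 of Nrp-1- iTreg lay below replicate 1 of Nrp-1+ iTreg. The means were 34.8 ± 0.809 and 37.3 ± 1.43 FPKM (SD, n = 4 each), a log2 fold change of -0.10 (SE 0.032, limma adjusted p = 0.0397). This call rested on single libraries: it was lost without any one of 6 of the 8, namely Nrp-1+ replicates 2, 3 or 4 and Nrp-1- replicates 1, 2 or 3 (adjusted p 0.0750 to 0.0977). Without either of the other two it held (0.00990 and 0.0415), and the value was below 0 in all 20 alternatives. The call was also lost with no filter and with eBayes without trend.

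Ifnar1 encodes the type I interferon chain that carries TYK2. Its levels were 32.0, 30.3, 31.3 and 31.8 FPKM in the Nrp-1+ libraries and 35.2, 36.6, 34.2 and 35.2 FPKM in the Nrp-1- libraries. Again the groups did not overlap. The means of 31.3 ± 0.753 and 35.3 ± 0.995 FPKM (SD, n = 4 each) differed by 11.3% of the Nrp-1- level (log2 fold change -0.17, SE 0.028, limma adjusted p = 0.00184), and the call held in all 20 alternatives.

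Ifnar2, the high-affinity chain of the same receptor and the one that carries JAK1, gave 69.0, 72.4, 72.4 and 69.0 FPKM in Nrp-1+ iTreg. In Nrp-1- iTreg it gave 72.6, 73.6, 71.1 and 69.1 FPKM. The groups ran through each other. The log2 fold change was -0.02 with a 95% interval from -0.083 to 0.048 (limma adjusted p = 0.651), which is -5.60% to 3.36% in FPKM + 1. No alternative called it, and with a library left out the log2 fold change ran from -0.035 to -0.0042.

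Il10ra encodes the chain that binds IL-10 and carries JAK1. It stood at 34.3, 32.6, 34.2 and 35.7 FPKM in Nrp-1+ iTreg and at 34.4, 34.6, 36.2 and 35.3 FPKM in Nrp-1- iTreg. The ranges overlapped, with replicate 4 of Nrp-1+ iTreg above 3 of the 4 Nrp-1- libraries. The log2 fold change was -0.04 with a 95% interval from -0.11 to 0.032 (limma adjusted p = 0.350), and no alternative called it. With a library left out the log2 fold change ran from -0.058 to -0.016. By flow cytometry the study reported more IL-10 receptor on resting and on restimulated Nrp-1+ iTreg than on Nrp-1- iTreg. That is protein, which the RNA levels here do not measure.

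Il10rb encodes the second IL-10 receptor chain, which carries TYK2 and is shared with the receptors of IL-22 and of the type III interferons. Its levels were 60.1, 58.5, 60.8 and 58.1 FPKM in Nrp-1+ iTreg and 62.1, 65.6, 61.8 and 67.3 FPKM in Nrp-1- iTreg. The groups were apart by a narrow gap, from 60.8 to 61.8 FPKM. Mean levels were 59.4 ± 1.26 and 64.2 ± 2.68 FPKM (SD, n = 4 each; log2 fold change -0.11, SE 0.032, limma adjusted p = 0.0266). The call was lost without any one of Nrp-1+ replicates 2 or 4 and Nrp-1- replicates 2 or 4 (adjusted p 0.0584 to 0.0677) and under quantile normalization.

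Jak1 encodes the kinase that takes part in signalling by all 3 receptors. The Nrp-1+ libraries gave 181.1, 180.2, 172.6 and 176.7 FPKM. The Nrp-1- libraries gave 206.7, 198.9, 201.4 and 202.9 FPKM, all above the highest Nrp-1+ value. The means were 177.6 ± 3.87 and 202.5 ± 3.26 FPKM (SD, n = 4 each), lower by 12.3% (log2 fold change -0.19, SE 0.023, limma adjusted p = 0.000329). Of the 20 alternatives, 19 called it, and quantile normalization left it at an adjusted p of 0.0623 with a log2 fold change of -0.16.

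The other 3 kinases were not called. Jak2, which serves the interferon-γ receptor, gave 44.2, 44.9, 41.4 and 41.1 FPKM in Nrp-1+ iTreg and 44.8, 42.6, 42.8 and 42.0 FPKM in Nrp-1- iTreg. These values overlap almost fully, the log2 fold change was -0.0054 with a 95% interval from -0.087 to 0.077 (limma adjusted p = 0.920), and its sign turned in 5 of the 20 alternatives. Jak3, the partner of the common γ chain of the IL-2 receptor family and not of these receptors, gave 70.4, 70.5, 71.2 and 76.6 FPKM in Nrp-1+ iTreg and 72.1, 70.4, 71.7 and 67.9 FPKM in Nrp-1- iTreg. It was the only member with a higher mean in Nrp-1+ iTreg, by 0.03 on the log2 scale (95% interval -0.044 to 0.11, limma adjusted p = 0.466), and 1 library held the highest value. Without that library the log2 fold change was 0.0042.

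Tyk2, the kinase on Ifnar1 and Il10rb, was the lowest member. It stood at 13.2, 13.3, 13.5 and 14.0 FPKM in Nrp-1+ iTreg and 14.9, 13.7, 15.1 and 14.4 FPKM in Nrp-1- iTreg. Only replicate 4 of Nrp-1+ iTreg reached above the lowest Nrp-1- library. The log2 fold change of -0.10 had a 95% interval from -0.18 to -0.019 and missed the threshold (limma adjusted p = 0.0518). In 7 of the 20 alternatives it passed, among them those without Nrp-1+ replicate 4 or without Nrp-1- replicate 2 (adjusted p 0.0442 and 0.0187).

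Levels can be set side by side because FPKM is per length. Jak1 and Ifngr1 were the highest members in both fractions, at ranks 481 and 492 of the 10467 tested genes by mean FPKM, and their ranges overlapped in each fraction. Jak3 and Ifnar2 followed, also with ranges that overlapped, then Il10rb, Jak2 and a group of Ifngr2, Ifnar1 and Il10ra. Within that last group, Ifngr2 and Il10ra overlapped in Nrp-1+ iTreg with Ifnar1 below both, whereas in Nrp-1- iTreg Ifngr2 overlapped with Ifnar1 and Ifnar1 with Il10ra. Tyk2 was lowest, at rank 5369.

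A ratio of a pair of genes inside a library does not depend on how libraries are scaled, so 6 such ratios were compared (exact two-sided permutation test of log2 ratios, 4 against 4, for which the smallest possible p is 0.0286, with Benjamini-Hochberg adjustment over the 6). The ratio of Ifngr1 to Ifngr2 was 4.76, 5.09, 4.96 and 4.79 in Nrp-1+ iTreg and 5.26, 5.23, 5.49 and 5.76 in Nrp-1- iTreg. The groups did not overlap, and the log2 difference was -0.15 (SE 0.040, exact p = 0.0286, adjusted p = 0.0429). The ratio of Ifnar1 to Ifnar2 was 0.463, 0.418, 0.432 and 0.461 in Nrp-1+ iTreg and 0.485, 0.498, 0.482 and 0.510 in Nrp-1- iTreg. These groups too were apart (log2 difference -0.15, SE 0.040, exact p = 0.0286, adjusted p = 0.0429). Without Nrp-1- replicate 4 the exact p of these 2 ratios was 0.0571. For Il10ra to Il10rb the means were 0.576 ± 0.026 and 0.548 ± 0.028 (SD, n = 4 each) and the groups overlapped (log2 difference 0.07, SE 0.048, exact p = 0.200). With a library left out this difference ran from 0.041 to 0.104 (exact p 0.0571 to 0.400).

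Among the kinases, the ratio of Jak1 to Jak2 was 4.02 to 4.30 in Nrp-1+ iTreg and 4.61 to 4.83 in Nrp-1- iTreg (log2 difference -0.18, SE 0.025, exact p = 0.0286, adjusted p = 0.0429). The ratio of Jak1 to Jak3 was 2.31 to 2.57 and 2.81 to 2.99 (log2 difference -0.22, SE 0.042, exact p = 0.0286, adjusted p = 0.0429). Jak1 therefore fell against both, with no overlap of groups. Against Tyk2 the ratios of 12.6 to 13.7 and 13.3 to 14.5 overlapped (log2 difference -0.08, SE 0.039, exact p = 0.114, adjusted p = 0.137). As a share of the summed FPKM of the 4 kinases, Jak1 made up 57.3% to 58.6% in Nrp-1+ libraries and 60.8% to 62.0% in Nrp-1- libraries. Jak3 made up 22.8% to 24.8% and 20.8% to 21.7%.

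**Figure D3:**
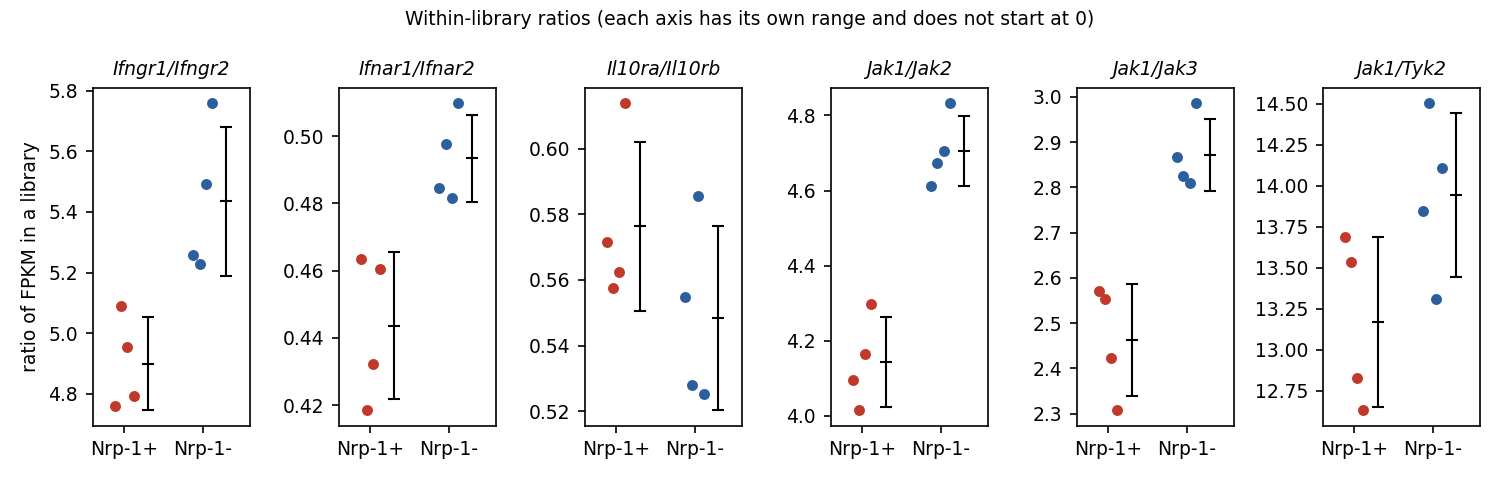
Ratio of FPKM of a pair of genes inside each library for the 6 pairs, with Nrp-1+ iTreg in red and Nrp-1- iTreg in blue, one point for each of 4 replicates, and the mean and SD in black. The groups are apart for Ifngr1 to Ifngr2, Ifnar1 to Ifnar2, Jak1 to Jak2 and Jak1 to Jak3, and overlap for Il10ra to Il10rb and Jak1 to Tyk2.

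The cluster on chromosome 16 spans 191.2 kb, and 3 of its 4 receptor genes were lower, where 20.0% of all tested genes were. Without Nrp-1+ replicate 2, Ifnar1 was the 1 of the 4 still called. Within 200 kb of them the annotation held 21 other genes, of which 11 were in the table and 7 were tested. Dnajc28 was lower (0.972 against 1.36 mean FPKM, log2 fold change -0.26, limma adjusted p = 0.0369) and Donson, a replication factor, was higher (30.6 against 28.5 mean FPKM, log2 fold change 0.10, limma adjusted p = 0.0113). The median log2 fold change of the 7 neighbours was 0.070.

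**Figure D4:**
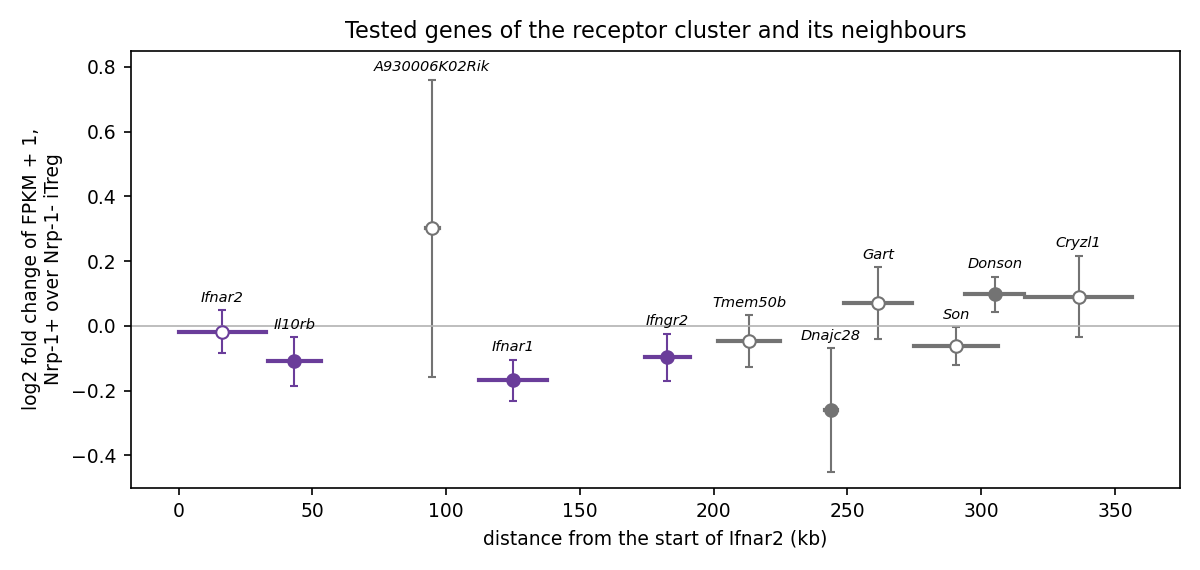
Log2 fold change of FPKM + 1 (Nrp-1+ iTreg over Nrp-1- iTreg, n = 4 each) with its 95% interval against distance from the start of Ifnar2 in kb, for the 4 receptor genes (purple) and the 7 tested neighbours (grey). Horizontal bars show the span of each gene and filled points an adjusted p under 0.05, and Il10rb, Ifnar1 and Ifngr2 lie below 0.

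The profile most like that of Ifngr1 was sought among all tested genes outside the members, as the root mean square distance between log2(FPKM + 1) values over the 8 libraries, each centred on its own mean. The nearest were Btg1, an antiproliferative gene (distance 0.016), Gimap8, a GTPase of lymphocytes (0.016), and Kdm4c, a histone demethylase (0.020). Among the members, Jak1 was nearest to Ifngr1 (0.043), then Ifnar1 (0.061), where a flat profile would lie at 0.125. For Il10ra the nearest were Ccdc43 (0.017), Zdhhc3 (0.019) and Capn1 (0.021), where a flat profile would lie at 0.042, and every other member lay farther away than that.

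The ligands of these receptors were at or near 0, as were Il19, Il20 and Il24, which are counted with them here but bind other chains of the family. Of 24 listed ligands 23 were in the table, 17 of these were listed at 0 in all 8 libraries and none passed the filter. Those at 0 were Ifnb1, Ifna1, Ifna2, Ifna4, Ifna5, Ifna6, Ifna9, Ifna11, Ifna12, Ifna13, Ifna14, Ifne, Ifnk, Ifnl2, Ifnl3, Il20 and Il22, and the Ifna genes are near-identical copies whose reads counting may drop or split. Ifng, the ligand of Ifngr1, reached at most 0.145 FPKM in Nrp-1+ iTreg and 0.101 in Nrp-1- iTreg. Il10 stood at 0.173 ± 0.112 and 0.141 ± 0.064 FPKM (SD, n = 4 each), with ranges that overlapped. Of the 5 other chains of this receptor family (Ifnlr1, Il20ra, Il20rb, Il22ra1 and Il22ra2) none passed the filter, and Il20rb was highest at 0.423 ± 0.124 and 0.466 ± 0.125 FPKM.

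Other cytokine receptor chains that bind JAKs were lower in 4 of 10 tested cases and higher in none (0 at an unadjusted p under 0.05), where 20.0% of all tested genes were lower, with a median log2 fold change of -0.044. Il7r, the receptor of the survival factor IL-7, stood at 117.1 to 127.8 FPKM in Nrp-1+ iTreg and 152.6 to 161.9 in Nrp-1- iTreg (log2 fold change -0.36, limma adjusted p = 6.84e-05). Il4ra, a chain of the IL-4 receptor, was lower too (log2 fold change -0.14, limma adjusted p = 0.000798). Il6st, the signalling chain of the IL-6 family, was at the edge (log2 fold change -0.09, limma adjusted p = 0.0321), as was Il21r. The count fell to 2, a share no longer above that background, without any one of Nrp-1+ replicates 2 or 3 and Nrp-1- replicates 1, 3 or 4. The chains Il2rb and Il2rg, which work with JAK1 and JAK3 in the IL-2 receptor, were at 550.9 and 393.6 mean FPKM in Nrp-1+ iTreg and 565.8 and 395.6 in Nrp-1- iTreg and were not called.

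Of 7 genes listed as STAT factors or Irf9, 5 were lower and none was higher (0 at an unadjusted p under 0.05), with a median log2 fold change of -0.11. Of all tested genes 20.0% were lower, and 25.2% of those at or above the level of the lowest member. Irf9, the DNA-binding partner of STAT2, gave 54.1, 52.5, 53.7 and 52.7 FPKM in Nrp-1+ iTreg and 63.3, 60.1, 60.7 and 61.0 in Nrp-1- iTreg. With no overlap, its log2 fold change was -0.20 (SE 0.023, limma adjusted p = 0.000255). Stat4, the STAT of IL-12, had a log2 fold change of -0.29 (SE 0.039, limma adjusted p = 0.000674). Stat6, the STAT of IL-4, had one of -0.11 (SE 0.020, limma adjusted p = 0.00313). Stat3, the main STAT of IL-10, was lower at 75.2 ± 1.06 against 81.4 ± 1.53 FPKM (SD, n = 4 each; log2 fold change -0.11, limma adjusted p = 0.0033), and Stat5b was lower as well. Stat2 and Stat5a were not called. The study drew Stat3, Irf1, Socs1 and Socs3 from these libraries, so the counts that hold them are no independent evidence of a direction.

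Of 16 negative regulators, 4 were lower, 3 were higher and 9 were not called, shares near the 20.0% lower and 20.9% higher of all tested genes, with a median log2 fold change of 0.014. Ptpn1, a phosphatase that acts on JAK2 and TYK2, was higher at 87.1 ± 2.01 against 74.7 ± 1.34 FPKM (SD, n = 4 each; log2 fold change 0.22, limma adjusted p = 0.000166). Socs2 and Cish, feedback inhibitors induced through STAT5, were higher by 0.19 and 0.14 on the log2 scale. Socs3, the feedback inhibitor induced by STAT3, was lower (log2 fold change -0.12, limma adjusted p = 0.00238), as were Socs5, Ptprc and Usp18, which binds Ifnar2 and limits type I interferon signalling. Socs1, the inhibitor of interferon-γ signalling, was at 126.4 ± 8.63 and 115.0 ± 5.33 FPKM and was not called (limma adjusted p = 0.0749).

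Of 27 interferon-induced genes 21 were tested, 10 were lower, 1 was higher and 10 were not called, with a median log2 fold change of -0.12. Of all tested genes 20.0% were lower and 20.9% higher, and 25.2% were lower among those at or above the level of the lowest member. Ly6a, the gene of the surface protein Sca-1, gave 210.5 to 225.6 FPKM in Nrp-1+ iTreg and 289.0 to 308.0 in Nrp-1- iTreg (log2 fold change -0.47, SE 0.030, limma adjusted p = 7.79e-06). Irf1, a transcription factor induced by interferon-γ, gave 85.0 to 88.0 and 109.4 to 116.1 FPKM (log2 fold change -0.37, SE 0.024, limma adjusted p = 1.02e-05). Igtp, a GTPase induced by interferon-γ, had a log2 fold change of -0.26 (SE 0.028, limma adjusted p = 0.000172). Isg20, an exonuclease, was the one that was higher (log2 fold change 0.38, limma adjusted p = 0.00251). Psmb8, Psmb9 and Tap1, which serve antigen presentation, were not called. The lower count was 6 without Nrp-1- replicate 2, a share close to the 25.2%.

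Of 6 genes known to be induced through the IL-10 receptor in macrophages, 3 were lower, where 20.0% of all tested genes were, none was higher (0 at an unadjusted p under 0.05) and the median log2 fold change was -0.12. Etv3, a repressor, was lower (log2 fold change -0.22, limma adjusted p = 0.0028), and the other two were Socs3 and Il4ra, which also stand in the lists above.

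**Figure D5:**
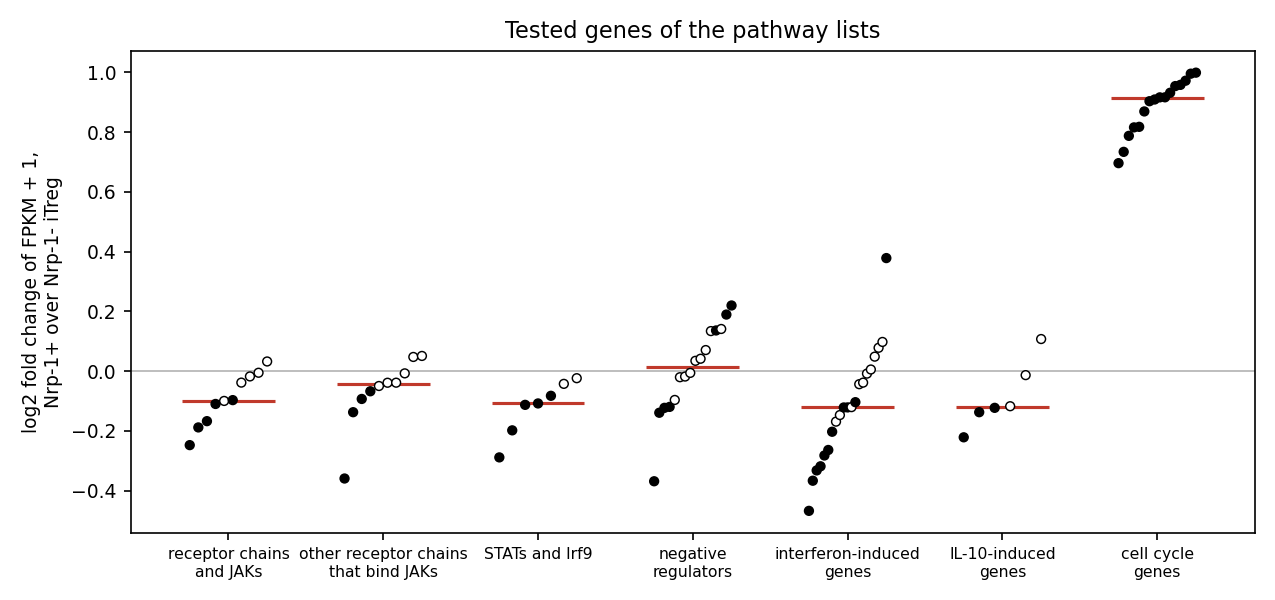
Log2 fold change of FPKM + 1 (Nrp-1+ iTreg over Nrp-1- iTreg, n = 4 each) of every tested gene in each pathway list, filled where the adjusted p was under 0.05, with the median of the list as a red line. The members' median is -0.098, that of the STATs and Irf9 -0.11, that of the interferon-induced genes -0.12 and that of the cell cycle genes 0.91.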

How the data were processed

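By the methods, poly(A)+ RNA of sorted Nrp-1+ and Nrp-1- iTreg was sequenced in 4 libraries each. The authors processed the reads in CLC Genomics Workbench (version 11.0.1), estimated levels with Cufflinks (its version is not given in the sources used here; build GRCm38/mm10 by the submitters' processing notes) and deposited 1 table of FPKM per gene and library. Cufflinks shares reads between overlapping transcripts by estimate, and the table gives no counts and so no counting error. Groups and replicate numbers were taken from the labels.

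FPKM was tested as log2(FPKM + 1) with limma 3.58.1 (R 4.3.3, trended eBayes, no covariates) over the 10467 of 23361 genes with a mean of at least 1 FPKM, with Benjamini-Hochberg adjustment and a threshold of 0.05. A pseudocount of 1 understates changes of low genes. Ratios were tested by exact permutation (scipy 1.17.1). The members and lists were chosen with earlier results of these data known, so they support nothing by their choice. Named genes were the members, Nrp1 and Foxp3, up to 3 called genes of each list with the smallest adjusted p, ligands at 0, the 3 genes nearest in profile to Ifngr1 and Il10ra, and up to 3 called neighbours of the cluster. Other genes were named after their values were seen, to account for list members.

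Alternatives were pseudocounts of 0.1 and 0.5, no filter or a mean of 5 FPKM, median-of-ratios and quantile scaling, eBayes without trend, array weights, a replicate block, a spline correction (5 degrees of freedom) for the GC content and length of transcripts, both together, exclusion of short RNA genes and each library left out in turn. Thymus-derived regulatory T cells named in the methods were not analysed here. A gene of the STAT list and one of the list of other cells' markers are not reported here and were left out of the counts of those lists.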

Additional observations from a re-analysis of the deposited data

Results flagged for a closer look

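Groups of 4 libraries were searched for a highest or lowest library whose gap to its neighbour, over the range of the group, passed Dixon's critical value at the 95% level. Of 34 groups, 2 passed, and chance alone gives about 1.7. Replicate 4 of Nrp-1+ iTreg held 76.6 FPKM of Jak3, while the other 3 libraries of the group lay between 70.4 and 71.2 FPKM. Relative depth was 1.22 in replicate 3 of Nrp-1+ iTreg, while the others of the group lay between 0.993 and 1.01.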

How the results depend on the processing

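The calls of Ifngr1 and Ifnar1 held in all 20 alternatives, and those of Ifnar2, Il10ra, Jak2 and Jak3 as not called held too. Ifngr2 was called in 11 of 20 (adjusted p 0.00990 to 0.0977), Il10rb in 13 (0.0172 to 0.103), Jak1 in 19 (7.73e-05 to 0.0623) and Tyk2 in 7 (0.0110 to 0.122), all below 0 in each. Lower members numbered 3 to 5 with a library left out, with 3 (Ifngr1, Ifnar1 and Jak1) without Nrp-1+ replicate 2. The log2 fold change of Jak2, never called, was above 0 with median-of-ratios size factors (0.00078), with array weights (0.000215), without Nrp-1+ replicate 3 (0.011) or 4 (0.014) and without Nrp-1- replicate 1 (0.014), and ran from -0.027 to 0.014 over the libraries left out. With a library left out, the log2 difference ranged from -0.17 to -0.12 for Ifngr1/Ifngr2 and from -0.18 to -0.13 for Ifnar1/Ifnar2, with exact p of 0.0286 to 0.0571. The cause was not tested.

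Labels give both groups replicate numbers 1 to 4. Deviations of same-numbered libraries from their group means correlated at -0.54, -0.020, 0.010 and -0.50 over tested genes. Without short RNA genes the correlations were -0.038, -0.067, -0.081 and -0.11. Same-numbered libraries thus did not deviate together, but this cannot show whether they came from a shared culture, which the labels do not say. With the replicate block, 3 members were lower (Ifngr1, Ifnar1 and Jak1; adjusted p = 0.0669 for Ifngr2 and 0.0883 for Il10rb by limma), and 1675 of all genes were lower in place of 2093. Under the pairing the log2 differences of the ratios are the same by construction (-0.15 for Ifngr1/Ifngr2, -0.15 for Ifnar1/Ifnar2, -0.18 for Jak1/Jak2 and -0.22 for Jak1/Jak3), where 4 pairs allow no exact p below 0.125, the value found for each. Depth is unknown from FPKM, which limits what can be said of ligands near 0.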

Other observations

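Il9r, the binding chain of the IL-9 receptor, lay under the filter on mean FPKM and was picked out after its values were seen. Its mean was 1.16 ± 0.274 FPKM in the Nrp-1+ and 0.254 ± 0.091 FPKM in the Nrp-1- libraries (SD, n = 4 each), with ranges of 0.848 to 1.51 and 0.176 to 0.355 that did not overlap, and limma without a filter gave an adjusted p of 0.000788. Among the markers of other cells, also picked out after their values were seen, Cd8b1 was at 7.86 ± 0.742 and 10.0 ± 0.935 FPKM while Cd8a was at 0.057 ± 0.041 and 0.047 ± 0.020 FPKM.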
